A study of Mus musculus with 8 samples.

Results

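Securin, separase and cohesin were followed through 9 genes in cardiomyocyte RNA from mouse hearts. The genes were Pttg1 (securin), Espl1 (separase), the cohesin subunits Rad21, Smc1a, Smc3, Stag1 and Stag2, and the cohesin regulators Wapl and Nipbl. They were found in the deposited table by their Ensembl identifiers, and 9 of its 51826 gene identifiers matched, 1 for each gene. All 9 passed the filter on low counts that kept 16623 genes for testing. The set was chosen by the measured levels of Pttg1, which differed between knockout (KO) and wild-type (WT) hearts in opposite directions at the 2 ages. The differences between KO and WT are therefore given below as values of the genes, with no test. The comparison of adult with e13.5 hearts was tested for the other 8 genes.

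The study sequenced 8 libraries in 4 groups of 2: WT embryos at e13.5 (an embryonic stage), KO embryos at e13.5, WT adult and KO adult. All mice were on the C57BL/6 strain, the KO genotype was LncSync-/-, and the labels name no other allele and no agent for any group. LncSync is the gene named in the KO genotype, and no row of the table bears that name, so the deletion was not checked in these counts. The labels give no age in weeks for the adults and do not state if each library of a group is a different animal. The p-values then cover only how far these libraries spread, and that spread may be technical. Total counts ran from 16495084 to 20395600 per library. Levels are given as CPM, counts scaled to library sizes normalised by TMM, and 3 counts corresponded to 0.103 to 0.207 CPM. Differences are log2 fold changes ± SE from the edgeR quasi-likelihood fit to all 8 libraries, and a gene was called where its p, adjusted by Benjamini-Hochberg over the 16623 genes, was below 0.05.

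Cohesin is a ring of Smc1a, Smc3 and Rad21, with a Stag1 or Stag2 subunit, that holds sister chromatids together from DNA replication to anaphase. Securin binds separase and keeps it inactive until the anaphase promoting complex marks securin for destruction, and free separase then cuts Rad21. Cohesin also folds the genome into loops in cells that do not divide: Nipbl loads it and drives loop growth, and Wapl releases it. Cardiomyocytes divide in the embryonic heart and largely leave the cell cycle after birth. The step of securin and separase described here comes at anaphase, whereas the ring is also used outside mitosis.

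Pttg1 (ENSMUSG00000020415) lies on the minus strand of chromosome 11 at 43420250 to 43426251 of mm10. The RefSeq window around its start site is printed here with those of 3 other genes: separase, its partner, and Smc3 and Wapl, which moved in opposite directions with age. The sequences are RefSeq's on GRCm38.p6, read 5′ to 3′ on the strand of the gene, and cover bases before the RefSeq start site. Capitals mark matches on either strand to TTTGAA or TTCGAA (forms of the cell cycle homology region found in promoters of mitotic genes), CCAAT (the CCAAT box) or GGGCGG (the GC box).
Pttg1, chr11:43425982-43426173, minus strand: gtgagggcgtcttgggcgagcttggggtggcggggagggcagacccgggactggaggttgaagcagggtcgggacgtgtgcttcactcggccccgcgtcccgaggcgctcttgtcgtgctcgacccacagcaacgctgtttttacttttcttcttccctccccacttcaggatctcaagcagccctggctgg
Espl1, chr15:102296043-102296292, plus strand: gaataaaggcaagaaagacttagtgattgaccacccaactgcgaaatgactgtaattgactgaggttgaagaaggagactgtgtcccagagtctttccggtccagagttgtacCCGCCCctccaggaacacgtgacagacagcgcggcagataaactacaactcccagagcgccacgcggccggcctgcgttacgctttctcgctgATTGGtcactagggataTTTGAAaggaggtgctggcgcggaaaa
Smc3, chr19:53600146-53600395, plus strand: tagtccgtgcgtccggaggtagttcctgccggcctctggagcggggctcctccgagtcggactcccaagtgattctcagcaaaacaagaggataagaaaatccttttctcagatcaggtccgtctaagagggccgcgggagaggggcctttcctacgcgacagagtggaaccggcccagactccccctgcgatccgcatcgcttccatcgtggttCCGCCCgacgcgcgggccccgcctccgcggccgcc
Wapl, chr14:34673678-34673927, plus strand: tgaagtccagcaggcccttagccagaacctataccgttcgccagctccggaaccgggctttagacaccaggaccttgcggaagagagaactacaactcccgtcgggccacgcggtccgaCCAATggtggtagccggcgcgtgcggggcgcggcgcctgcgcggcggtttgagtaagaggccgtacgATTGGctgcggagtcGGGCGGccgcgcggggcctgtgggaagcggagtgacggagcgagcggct
The Pttg1 stretch lies between alternative first exons in the GENCODE annotation, whose transcripts begin as far upstream as 43426251, and the last 27 bases of the Espl1 stretch are exonic there. None of the 4 words occurred in the 300-base window of Pttg1, which reaches upstream only to 43426231. Bases upstream of the GENCODE start at 43426251 were thus not searched, and nothing is read about a promoter there. The Espl1 window held the first cell cycle form, a CCAAT box and a GC box once each. The Smc3 window held a GC box, and the Wapl window held a CCAAT box on each strand and a GC box. Over 32851 RefSeq windows of the same length, 17.9% held the cell cycle form found in Espl1 and 1.56% the other form, while 37.4% held a CCAAT box and 35.7% a GC box. A window was found for 6 of the 9 genes. The marked matches do not overlap, and a match describes these letters only.

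Pttg1 was at 66.9 and 27.5 CPM in WT e13.5, 176 and 73.1 CPM in KO e13.5, 47.6 and 57.0 CPM in WT adults, and 2.11 and 1.39 CPM in KO adults (replicates 1 and 2). Both KO libraries were above both WT libraries at e13.5 and below both in adults, and the KO adult libraries were below all 6 others. The KO adult levels rested on 32 and 21 counts, against 817 and 827 counts in WT adults. The group means were 47.2 ± 27.9 CPM in WT e13.5, 125 ± 72.8 in KO e13.5, 52.3 ± 6.64 in WT adults and 1.75 ± 0.507 in KO adults (SD, n = 2). The mean in KO was 2.64 times that in WT at e13.5, and the mean in WT was 29.9 times that in KO in adults. The fitted difference of KO from WT was 1.40 ± 0.57 at e13.5 and -4.89 ± 0.68 in adults.

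The e13.5 libraries of one group differed almost as much as the groups did. Replicate 1 was above replicate 2 by 1.28 on the log2 scale in WT and by 1.27 in KO, and KO replicate 2 (73.1 CPM) was close to WT replicate 1 (66.9 CPM). Within a replicate number the ratio of KO to WT was 2.63 for number 1 and 2.66 for number 2. The numbers were not taken as pairs, so these 2 ratios do not show that the difference repeats. Across numbers, KO replicate 2 was near WT replicate 1, as given above. The fitted e13.5 difference was 0.62 without KO replicate 1 and 2.34 without WT replicate 1. In adults it ran from -5.22 to -4.63 when any of the 8 libraries was left out. Among the 16623 genes, 300 had a larger value of KO minus WT at e13.5 than Pttg1, and 61 had a smaller one in adults.

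From e13.5 to adult, Pttg1 differed by 0.15 ± 0.56 in WT and by -6.15 ± 0.71 in KO. Both values share libraries with the differences that chose the gene and have no test. The WT value went from -0.33 without WT e13.5 replicate 2 to 1.07 without WT e13.5 replicate 1, so no direction is read from it. In WT, 6942 genes had a larger age difference than Pttg1 and 9680 a smaller one, which places it in the middle of the table. In KO, 747 genes had a smaller one.

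**Figure D1:**
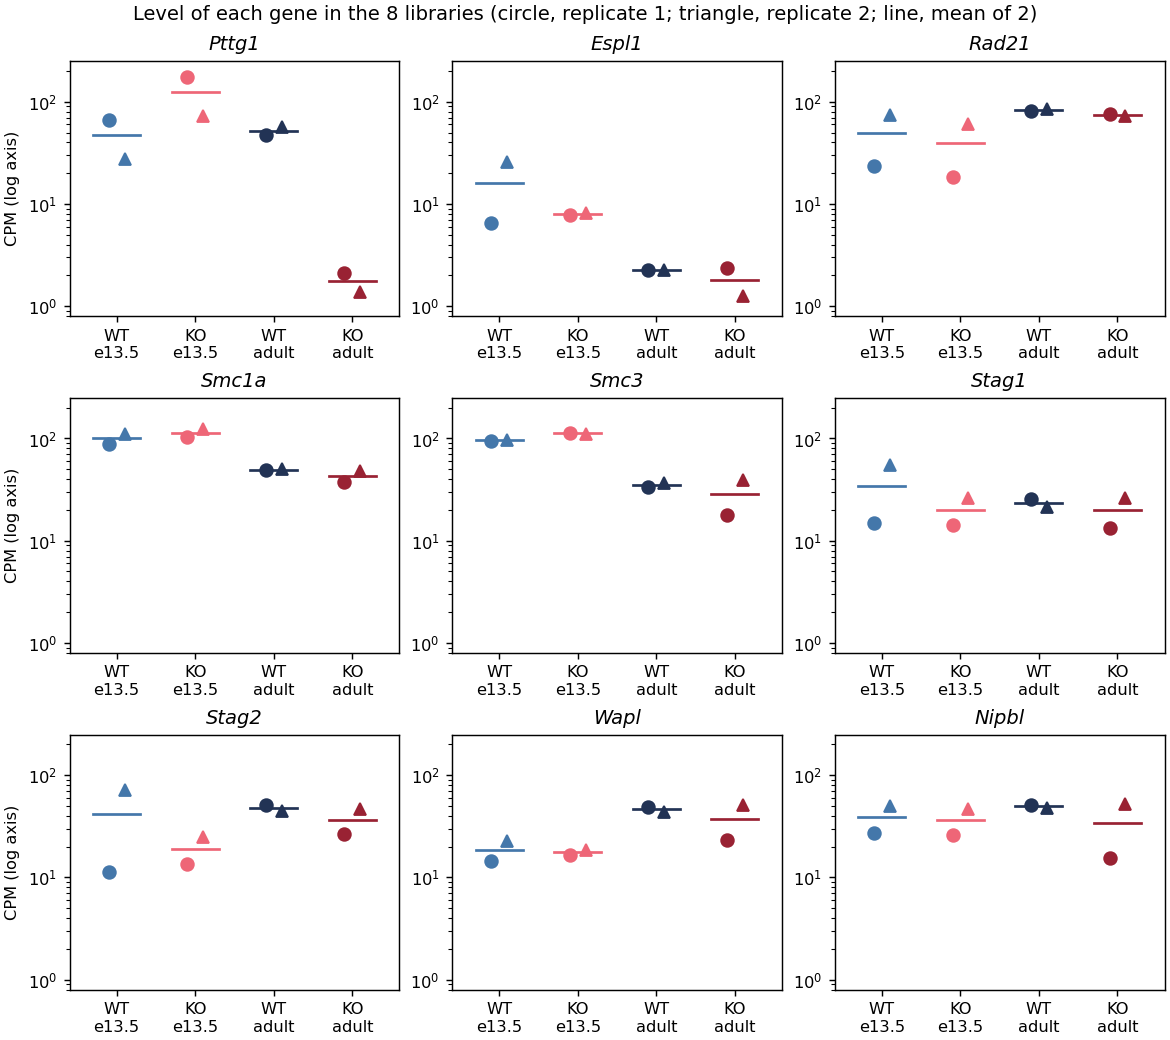
Level of each of the 9 genes in CPM on a log axis, by group, with a circle for replicate 1, a triangle for replicate 2 and a line for the mean of the 2. Pttg1 stands at 2.11 and 1.39 CPM in KO adults and at 27.5 CPM or more in the other 6 libraries. Espl1, Smc1a and Smc3 lie lower in all 4 adult libraries than in all 4 e13.5 libraries, as do 32.3% of all genes tested.

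Espl1 (ENSMUSG00000058290, chromosome 15, 102296266 to 102324357, plus strand) encodes separase, the protease that securin holds. It was at 6.50 and 25.6 CPM in WT e13.5, 7.81 and 8.11 CPM in KO e13.5, 2.27 and 2.27 CPM in WT adults, and 2.37 and 1.26 CPM in KO adults. All 4 adult libraries were below all 4 e13.5 libraries, which held for 32.3% of all genes tested. WT e13.5 replicate 2 stood above the other 3 e13.5 libraries. Separase fell with age by 2.47 ± 0.49 on the log2 scale over both genotypes (adjusted p = 0.00200). The fall was 2.82 ± 0.70 in WT (adjusted p = 0.0116) and in KO it was 2.13 ± 0.69 (adjusted p = 0.0328). The difference between the genotypes was not tested. Both calls within a genotype rested on single libraries. The WT call was lost without WT e13.5 replicate 2 (-1.49) and without either WT adult library. The KO call was kept in 2 of 8 fits that left out 1 library, with an adjusted p of up to 0.191 (without KO adult replicate 2).

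The SMC pair of the ring was lower in adults. Smc1a (ENSMUSG00000041133, X chromosome, 152016428 to 152062694, plus strand) was at 88.9 and 112 CPM in WT e13.5, 102 and 125 CPM in KO e13.5, 48.7 and 50.5 CPM in WT adults, and 37.6 and 48.2 CPM in KO adults. Smc3 (ENSMUSG00000024974, chromosome 19, 53600398 to 53645833, plus strand) was at 94.9 and 96.6 CPM in WT e13.5, 114 and 111 CPM in KO e13.5, 33.8 and 37.0 CPM in WT adults, and 17.7 and 39.5 CPM in KO adults. For both genes the 4 adult libraries lay below the 4 e13.5 libraries, as for 32.3% of all genes tested. Their e13.5 libraries were closer together than those of the other ring genes. Over both genotypes Smc1a fell by 1.21 ± 0.28 (adjusted p = 0.00466) and Smc3 fell by 1.70 ± 0.33 (adjusted p = 0.00171).

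Rad21 (ENSMUSG00000022314, chromosome 15, 51962240 to 51991747, minus strand), the subunit that separase cuts, was at 23.6 and 74.9 CPM in WT e13.5, 18.6 and 60.3 CPM in KO e13.5, 81.3 and 85.1 CPM in WT adults, and 76.5 and 72.3 CPM in KO adults. The adult libraries were close together, whereas in each e13.5 genotype replicate 2 was at the adult level or near it and replicate 1 was lower by 1.66 and 1.69 on the log2 scale. The age difference of 0.84 ± 0.46 did not pass the test (adjusted p = 0.138). It passed without WT e13.5 replicate 2 (1.38, adjusted p = 0.0146) and without KO e13.5 replicate 2 (1.38, adjusted p = 0.0202). It also passed with a replicate block fitted to all 8 libraries (1.07, adjusted p = 0.0337), so the call depends on single libraries and on the block.

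A ring carries either Stag1 or Stag2. Stag1 (ENSMUSG00000037286, chromosome 9, 100597798 to 100959375, plus strand) was at 14.8 and 54.5 CPM in WT e13.5, 14.3 and 26.0 CPM in KO e13.5, 25.7 and 21.4 CPM in WT adults, and 13.2 and 26.4 CPM in KO adults. Stag2 (ENSMUSG00000025862, X chromosome, 42149317 to 42277185, plus strand) was at 11.2 and 71.9 CPM in WT e13.5, 13.6 and 24.6 CPM in KO e13.5, 51.0 and 44.4 CPM in WT adults, and 26.4 and 46.9 CPM in KO adults. For both genes WT e13.5 replicate 2 was the highest of the 8 libraries, and the ages overlapped. Neither age difference passed the test: Stag1 had -0.29 ± 0.45 (adjusted p = 0.600) and Stag2 had 0.57 ± 0.52 (adjusted p = 0.365). Without WT e13.5 replicate 2 the value of Stag1 was 0.34, and that of Stag2 was 1.52 and passed (adjusted p = 0.00531).

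Wapl (ENSMUSG00000041408, chromosome 14, 34673928 to 34747983, plus strand), which releases cohesin from chromatin, was at 14.6 and 22.7 CPM in WT e13.5, 16.8 and 18.5 CPM in KO e13.5, 49.1 and 43.5 CPM in WT adults, and 23.1 and 51.4 CPM in KO adults. All 4 adult libraries were above all 4 e13.5 libraries, as for 26.9% of all genes tested, and KO adult replicate 1 came nearest to the e13.5 range. Wapl rose by 1.19 ± 0.34 over both genotypes (adjusted p = 0.0138). The call was lost without WT adult replicate 1 (1.16, adjusted p = 0.0554) and without KO adult replicate 2 (0.86, adjusted p = 0.0661).

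Nipbl (ENSMUSG00000022141, chromosome 15, 8290617 to 8444463, minus strand), the loader, was at 27.3 and 49.9 CPM in WT e13.5, 26.1 and 46.4 CPM in KO e13.5, 51.2 and 48.1 CPM in WT adults, and 15.5 and 52.8 CPM in KO adults. KO adult replicate 1 was the lowest of the 8 libraries and KO adult replicate 2 the highest. The age difference was 0.14 ± 0.42 (adjusted p = 0.797), and it ran from -0.41 without KO adult replicate 2 to 0.46 without KO adult replicate 1.

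Counted over both genotypes, 3 of the 8 genes other than Pttg1 fell with age (Espl1, Smc1a and Smc3) and 1 rose (Wapl). Among all genes tested 32.6% were called lower and 27.0% higher, so 3 of 8 and 1 of 8 are near the background of an age comparison in which 59.6% of genes were called. The median over the 9 genes was -0.29, beside -0.21 over all genes. In WT alone Espl1 and Smc3 fell, with 21.1% of all genes called lower and 38.9% called in either direction. In KO alone Espl1, Smc1a and Smc3 fell, with 20.9% called lower and 41.4% in either direction. The 2 calls in WT became 0 without WT e13.5 replicate 2, WT adult replicate 1 or WT adult replicate 2, and 1 without WT e13.5 replicate 1. The 3 calls in KO became 0 without KO adult replicate 1, and 1 without KO adult replicate 2, KO e13.5 replicate 2, WT adult replicate 1 or WT adult replicate 2.

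Levels were also set per kilobase of exon so that genes could be ordered. In WT e13.5 Pttg1 was highest on that scale, at 23.6 ± 13.9 CPM per kilobase (SD, n = 2), followed by Smc1a at 17.4 ± 2.80 and Smc3 at 17.3 ± 0.211. The 2 Pttg1 libraries, at 13.7 and 33.5, spanned both SMC genes, so the first 3 places are not separated. In KO e13.5 Pttg1 was first at 62.3 ± 36.4, and both its libraries were above those of Smc3 (20.2 ± 0.337) and Smc1a (19.7 ± 2.80), whose order is not separated. In WT adults the order was Pttg1 at 26.1 ± 3.32, Rad21 at 19.7 ± 0.645 and Smc1a at 8.59 ± 0.222, with no overlap between these neighbours. In KO adults Rad21 was first at 17.6 ± 0.698, Smc1a followed at 7.43 ± 1.30, and Pttg1 was next to last at 0.875 ± 0.253, above Espl1 at 0.208 ± 0.0899. Espl1 was last in all 4 groups, also with the length of the longest transcript or of the longest coding sequence.

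**Figure D2:**
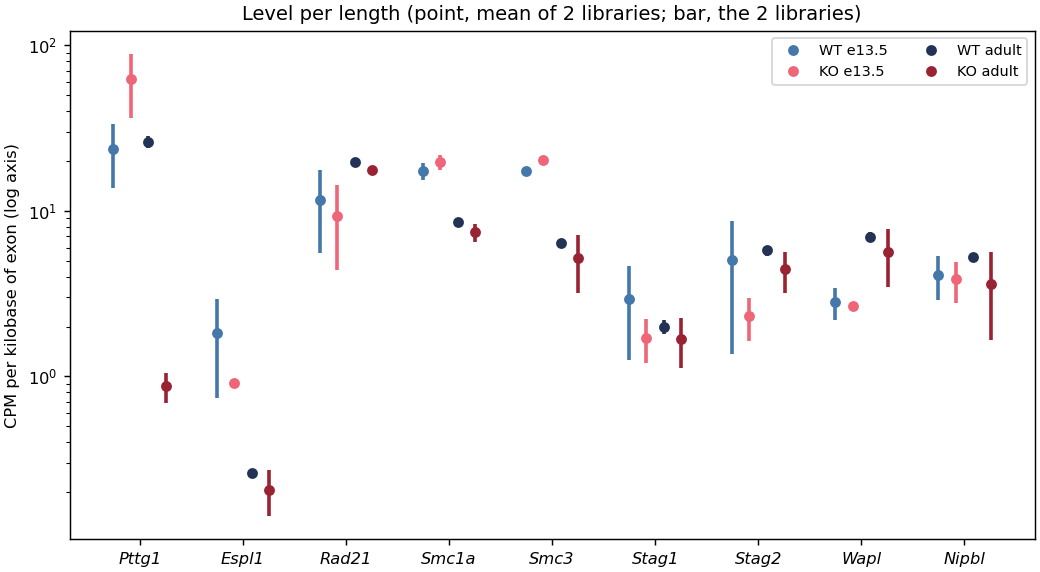
CPM per kilobase of exon on a log axis for the 9 genes, with a point for the mean of a group and a bar between its 2 libraries. Pttg1 is first in 3 groups and next to last in KO adults at 0.875, and Rad21 goes from the fourth place at e13.5 to the first in KO adults.

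The make-up of the cohesin messages was described within each library on the per-length scale. Rad21 was at 0.325 and 1.02 times Smc3 in WT e13.5, 0.214 and 0.712 times in KO e13.5, 3.15 and 3.01 times in WT adults, and 5.65 and 2.40 times in KO adults. All 4 adult ratios were above all 4 e13.5 ratios, though the age difference of Rad21 alone was not called. How many other gene pairs separate the ages in this way was not counted. Among single genes tested, all 4 adult libraries were above all 4 e13.5 libraries for 26.9% and below them for 32.3%. Stag2 made up 52.0% and 65.3% of the 2 Stag messages in WT e13.5, 57.7% and 57.4% in KO e13.5, 73.8% and 74.8% in WT adults, and 74.0% and 71.6% in KO adults. The adult shares lay above the e13.5 shares in every library, and with the length of the longest transcript the 8 shares were 43.2% to 57.0% at e13.5 and 64.0% to 67.6% in adults. Smc1a stayed closer to its partner Smc3, at 0.866 to 1.11 times at e13.5 and 1.17 to 2.04 times in adults. Here too all 4 adult ratios were above all 4 e13.5 ratios.

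Genes of the same pathway were taken from 5 lists, of which 87 of 89 genes were tested. Over both genotypes 32.6% of all genes tested were called lower in adults and 27.0% higher, the background for each list below. The spindle checkpoint holds the anaphase promoting complex back until chromosomes are attached. The spindle checkpoint and kinetochore list had 16 of 18 genes lower in adults over both genotypes and 0 higher by edgeR, with a median of -4.61. At an unadjusted p below 0.05 and by DESeq2, 0 of its genes were higher. Cenpe, a kinetochore motor, fell by 5.44 ± 0.35 (adjusted p = 8.36e-06), Ndc80, which binds microtubules, fell by 6.58 ± 0.44 (adjusted p = 9.80e-06), and Trip13, an ATPase that acts on Mad2, fell by 6.54 ± 0.46 (adjusted p = 1.12e-05). The 2 genes of this list not called were Mad2l1bp at -0.92 and Zw10 at -0.75. The mitotic kinases and markers had 17 of 18 genes lower and 0 higher by edgeR on all 8 libraries, with a median of -5.39. At an unadjusted p below 0.05 and by DESeq2, 0 were higher as well. The count of genes higher changed in the fit without WT e13.5 replicate 2. The kinesin Kif20a fell by 5.60 ± 0.36 (adjusted p = 8.15e-06), the kinase Aurkb fell by 5.88 ± 0.39 (adjusted p = 8.86e-06) and the kinesin Kif23 fell by 5.18 ± 0.36 (adjusted p = 1.12e-05), while Lin54, of the DREAM complex, was at 0.38 and was not called.

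The summed level of the mitotic list was 1217 to 2042 CPM in the 4 e13.5 libraries and 32.5 to 62.0 CPM in the 4 adult libraries. Its median age difference was -5.25 in WT, with 16 of 18 genes lower, beside 0.15 ± 0.56 for Pttg1 and a fall of 2.82 ± 0.70 for Espl1. In KO it was -5.53, with 17 of 18 lower, beside -6.15 ± 0.71 for Pttg1. The age difference of Pttg1 was far from the median of the mitotic list in WT and near it in KO. Each is relative to the e13.5 libraries of its own genotype. The gene was chosen by these same libraries, so the contrast between genotypes was set by that choice and is only a description.

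The anaphase promoting complex, the ubiquitin ligase that marks securin, had 13 of 19 genes lower and 1 higher, with a median of -1.04. Its activator Cdc20 fell by 6.35 ± 0.49 (adjusted p = 1.41e-05), its E2 enzyme Ube2c fell by 7.86 ± 0.69 (adjusted p = 2.17e-05) and its inhibitor Fbxo5 fell by 4.80 ± 0.40 (adjusted p = 1.71e-05). Fzr1, the activator used outside mitosis, was at 0.04 and was not called. The gene that rose was the scaffold subunit Anapc1, by 1.53 ± 0.49 (adjusted p = 0.0221), which was at 80.2 CPM in WT e13.5 replicate 2 and at 13.0 to 16.9 CPM in the other e13.5 libraries. Without WT adult replicate 1 the list had 8 genes lower and 0 higher, without KO adult replicate 2 it had 0 higher, and without KO e13.5 replicate 2 it had 3 higher.

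The list of other cohesin subunits and regulators had 10 of 18 genes lower and 2 higher, with a median of -1.93. Genes of cohesion set-up in S phase were among those lower: the acetyltransferase Esco2 fell by 5.86 ± 0.42 (adjusted p = 1.19e-05), and sororin, Cdca5, was at 23.6 to 60.1 CPM at e13.5 and at 0 to 0.233 CPM in adults. The histone kinase Haspin fell by 5.13 ± 0.44 (adjusted p = 1.96e-05). The 2 genes that rose were Ctcf, the DNA-binding protein at which cohesin loops stop, by 1.99 ± 0.31 (adjusted p = 0.000542), and Pds5a, which works with Wapl, by 1.96 ± 0.51 (adjusted p = 0.00852). Ctcf was at 7.05 to 11.7 CPM in the 4 e13.5 libraries and at 32.7 to 43.9 CPM in the 4 adult libraries. Pttg1ip, a securin-binding protein, was at -0.19 (adjusted p = 0.661), with group means from 121 to 147 CPM.

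Condensin and the SMC5/6 complex, the other SMC complexes, had 9 of 14 genes lower and 1 higher, with a median of -1.37. The condensin genes Smc2, Ncaph and Smc4 fell by 4.50 ± 0.35 (adjusted p = 1.47e-05), 5.25 ± 0.44 (adjusted p = 1.88e-05) and 3.41 ± 0.31 (adjusted p = 2.39e-05). The SMC5/6 subunit Nsmce4a rose by 3.58 ± 0.34 (adjusted p = 3.54e-05), and without WT e13.5 replicate 2 the list had 2 genes higher. The SMC pair of condensin thus changed by more than 3 on the log2 scale, whereas Smc1a and Smc3 changed by less than 2, a contrast that was not tested between genes.

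**Figure D3:**
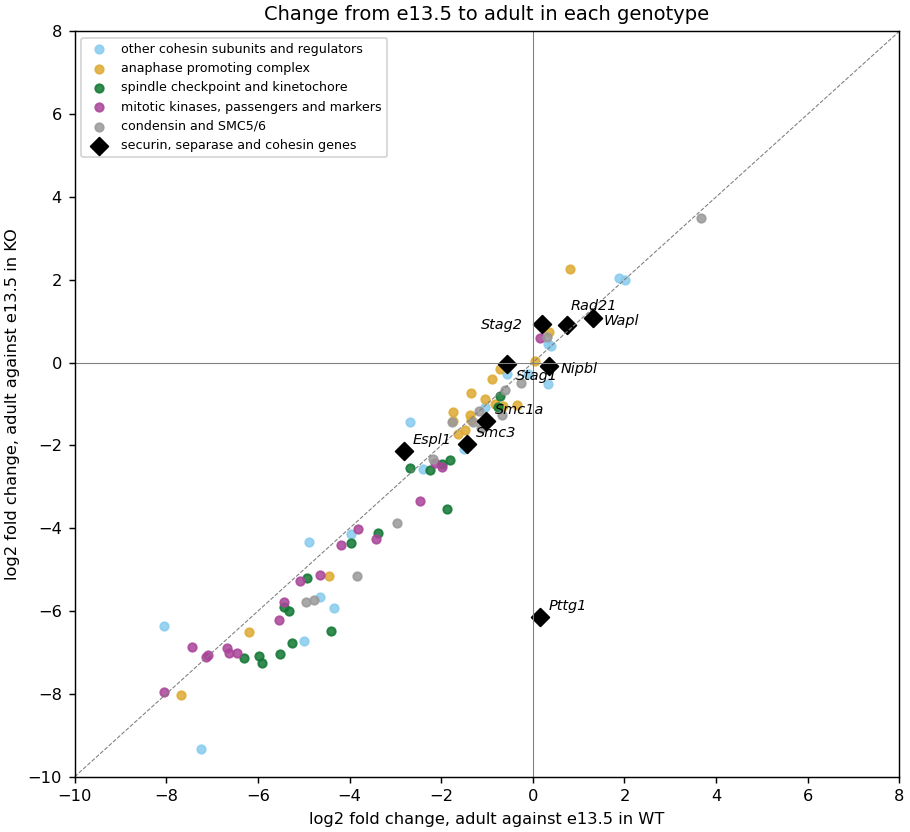
Log2 fold change from e13.5 to adult in WT (horizontal) and in KO (vertical) for the 9 genes (black diamonds) and the 87 tested genes of the 5 lists (coloured points), with a dashed line where both are equal. Pttg1 lies at 0.15 and -6.15, away from the line, which is the pattern it was chosen for, and the other 8 genes lie between -2.82 and 1.31 in WT.

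Between KO and WT, the values of the other 8 genes at e13.5 ran from -1.12 ± 0.74 for Stag2 and -1.01 ± 0.65 for Espl1 to 0.23 ± 0.45 for Smc3. These values moved with single libraries: without WT e13.5 replicate 2 Stag2 was at 0.78, Stag1 at 0.46 and Espl1 at 0.32, and without WT e13.5 replicate 1 they were at -1.78, -1.30 and -1.54. In adults all 8 were negative, from -0.16 ± 0.64 for Rad21 to -0.54 ± 0.60 for Nipbl, and each was smaller than its SE. Without KO adult replicate 1, Smc3, Stag1, Wapl and Nipbl were positive (0.09 to 0.17), and without KO adult replicate 2 Espl1 was (0.06). In KO adults replicate 1 was below replicate 2 by 0.36 to 1.76 on the log2 scale for Smc1a, Smc3, Stag1, Stag2, Wapl and Nipbl.

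Groups that did not overlap were counted as a description. At e13.5 both KO libraries were above both WT libraries for Pttg1 and Smc3 (6.77% of all genes, beside 8.65% with both below), and in adults both were below for Pttg1, Rad21 and Smc1a (14.5% of all genes). Over all genes, 10 were called higher (0.0602%) and 2 lower (0.0120%) in KO at e13.5, 0.0722% in all, and 7 higher (0.0421%) and 1 lower (0.00602%) in KO adults, 0.0481% in all.

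The edgeR test called 0 of the 87 pathway genes between KO and WT at either age, and DESeq2 also called 0. At an unadjusted p below 0.05 there was 1 gene at e13.5, Anapc1, and there were 3 genes in adults, Esco2, Cenpe and Cenpf, all with lower values in KO and named here after their values were seen. Over all 16623 genes there were 398 at e13.5 and 377 in adults past that unadjusted threshold, so these counts are near the background. The spindle checkpoint list was positive in 15 of 18 genes at e13.5 (median 0.33) and in 3 of 18 in adults (median -0.42), and the mitotic list in 13 of 18 (median 0.34) and 8 of 18 (median -0.11). The medians over all genes were -0.07 and 0.01. The list of other cohesin genes had medians of 0.06 and -0.14, condensin and SMC5/6 had 0.09 and -0.26, and the anaphase promoting complex had -0.02 at both ages.

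**Figure D4:**
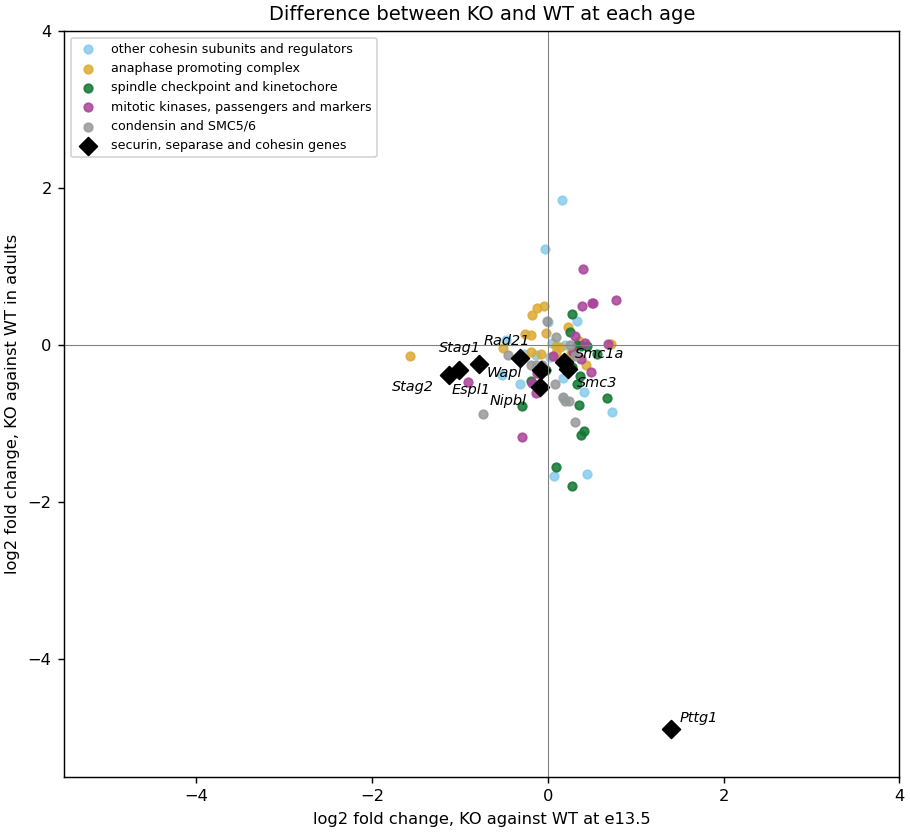
Log2 fold change of KO against WT at e13.5 (horizontal) and in adults (vertical) for the 9 genes (black diamonds) and the 87 tested pathway genes (coloured points). Pttg1 lies at 1.40 and -4.89, and the other 8 genes lie between -1.12 and 0.23 at e13.5 and between -0.54 and -0.16 in adults.

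Among the e13.5 libraries, erythroid messages shared their highest and lowest library with Pttg1, but not the order of those between. The 8 erythroid markers summed to 42040 and 19485 CPM in WT e13.5 and to 153774 and 22174 CPM in KO e13.5, and 3 of these 4 sums were above that of the 10 cardiomyocyte markers in the same library. KO e13.5 replicate 1 was highest and WT e13.5 replicate 2 lowest in both the erythroid sum and Pttg1. Between them, WT e13.5 replicate 1 had the larger erythroid sum, whereas KO e13.5 replicate 2 had more Pttg1 (73.1 against 66.9 CPM). In adults the erythroid sum was 16.8 and 87.7 CPM in WT and 180 and 21.9 CPM in KO, with Hbb-y and Slc4a1 at 0 in all 4 libraries, and its order was not that of Pttg1. All 8 erythroid markers were called lower in adults. The part of erythroid RNA in the e13.5 values was not tested, and in RNA from many cells fewer cells of a type and less RNA per cell cannot be told apart.

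Other markers were summed to describe the tissue of the groups, and genes of high level weigh most in such sums. The cardiomyocyte markers summed to 11825 to 30153 CPM at e13.5 and to 74228 to 97217 CPM in adults, and the fibroblast markers to 418 to 3699 CPM and 403 to 1031 CPM. Fibroblast sums were higher in replicate 2 than in replicate 1 of both e13.5 genotypes. They were 3699 against 886 CPM in WT and 3646 against 418 CPM in KO. In WT e13.5, Dcn (119 against 170 CPM) and Tcf21 (11.7 against 12.4 CPM) of that list were lower in replicate 2. All of the 9 genes except Pttg1 and Smc3 were also higher in replicate 2 of both e13.5 genotypes, Rad21, Stag1 and Stag2 among them. Endothelial sums were 577 to 761 CPM at e13.5 and 702 to 1748 CPM in adults, and macrophage sums 64.2 to 105 CPM and 166 to 431 CPM. The genes of a list did not all move with its sum. Over both genotypes, 6 of 10 cardiomyocyte genes were called higher in adults and 1 lower (Myh7, at -5.13). Of 8 endothelial genes, 2 were called higher and 2 lower. Among all genes tested, 27.0% were called higher and 32.6% lower. Xist, an X-linked RNA made in female cells, was at 12.8 to 81.8 CPM in the e13.5 libraries and at 0 to 0.464 CPM in adults, beside the X-linked Smc1a and Stag2. The part of these differences in the age results was not tested.

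The gap between replicates went with transcript length. In WT e13.5 the median log2 gap of replicate 1 over replicate 2 was 0.73 for genes with transcripts up to 1500 bases and -1.27 for those over 6000 bases, and in KO e13.5 it was 0.50 and -0.59. Pttg1 has the shortest transcript of the set, 1674 bases, and had gaps of 1.28 and 1.27, above the medians of its range (up to 3000 bases) of 0.44 and 0.36. Stag2 (6171 bases) and Espl1 (6658 bases) had gaps of -2.67 and -1.96 in WT e13.5, and of -0.85 and -0.05 in KO e13.5. Smc3 (4851 bases) had -0.02 and 0.03 at e13.5, and Rad21 (3956 bases) had -1.66 and -1.69. In WT adults the medians ran from 0 to 0.12 and the 9 genes from -0.26 to 0.27. In KO adults the medians ran from 0.45 for the shortest to -0.34 for the longest, with Nipbl (9423 bases) at -1.76 and Pttg1 at 0.56. The part of transcript length in the differences between groups was not tested.

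**Figure D5:**
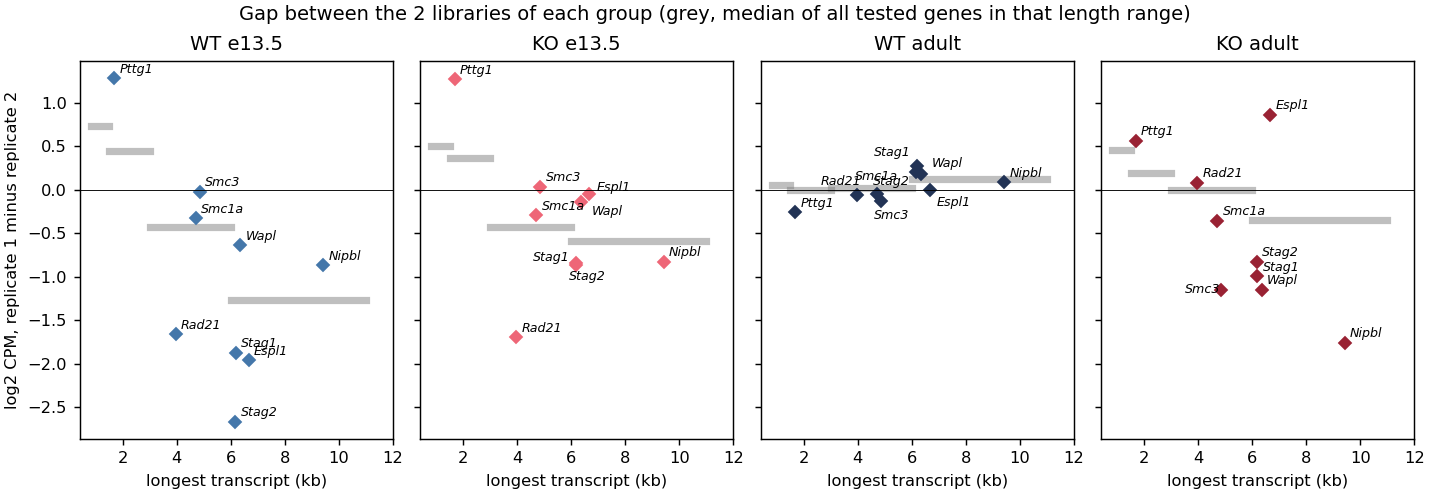
Log2 CPM of replicate 1 minus replicate 2 in each group against the length of the longest transcript, for the 9 genes (diamonds), with grey bars for the median of all tested genes in 4 length ranges (the bars of the open-ended ranges stop at an arbitrary length). At e13.5 Pttg1 lies at 1.28 and 1.27. The other genes lie between -2.67 and -0.02 in WT e13.5 and between -1.69 and 0.03 in KO e13.5. In WT adults all 9 genes lie between -0.26 and 0.27.

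How reads were shared between similar genes was not tested. None of the 9 genes had a transcript of which 50% or more matched another gene with 95% or more identity, and shorter matches of Smc3, over 2.97% and 3.03% of its transcript, were found in AC154766.2 and Gm11204. The overlapping antisense gene of Stag2, Gm37564, had 0 counts in all 8 libraries. Tested protein-coding genes around Pttg1 included Hmmr, Nudcd2 and Ccng1 on one side, with starts at -2690, -2690 and -2670 kb from its own. On the other side were Slu7, C1qtnf2, Ccnjl, 4933415A04Rik and Pwwp2a, at 7.49 to 256 kb. None of the genes named here was called between KO and WT at either age. Slu7, a splicing factor gene whose start lies 7.49 kb away on the opposite strand, was at 44.3 and 37.1 CPM in WT e13.5, 71.8 and 40.3 CPM in KO e13.5, 29.6 and 33.8 CPM in WT adults, and 29.8 and 34.3 CPM in KO adults. Its KO values overlapped those of WT at both ages, with fitted differences of 0.46 ± 0.42 and 0.02 ± 0.42. Ccnjl, 103 kb away, was positive at e13.5 (0.69 ± 0.62) and negative in adults (-1.38 ± 0.67), at 0.527 to 5.74 CPM.

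The genes most like Pttg1 were ranked by Pearson correlation of log2 CPM over the 8 libraries, among 10472 protein-coding genes with a mean of at least 5 CPM. The first 6 were Bcl2l1 (r = 0.963), Tmem100 (0.928), Angptl7 (0.915), Tsc22d3 (0.906), Trit1 (0.906) and Med20 (0.898), with Spearman values from 0.500 to 0.881. Bcl2l1, which encodes the survival protein Bcl-xL, was at 58.3 and 46.7 CPM in WT e13.5, 80.8 and 57.8 CPM in KO e13.5, 67.4 and 61.0 CPM in WT adults, and 33.0 and 22.7 CPM in KO adults. Its KO adult libraries were the lowest of the 8, as for Pttg1, over a far smaller range. In the pathway lists the kinetochore gene Cenpf was highest, with r = 0.815 and rank 40, and in the ring Smc3 (r = 0.686, rank 509) and Smc1a (r = 0.657, rank 815) were. The 8 libraries share age, erythroid level and replicate gaps, and these values are a description.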

How the data were processed

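RNA of cardiomyocytes was sequenced in 8 libraries, 2 in each of 4 groups. Per the labels' protocols, 200 ng of total RNA was amplified by Smart-seq2 and made into libraries with a SMARTer kit. The authors deposited expected counts per gene from RSEM on mm10, per the submitters' processing notes, and its version and the annotation were not stated there. Counts were whole numbers with differing totals. Symbols and positions came from GENCODE vM21, which held 51633 of 51826 identifiers. The filterByExpr filter, TMM scaling (factors 0.770 to 1.44) and a quasi-likelihood fit of 4 group means to all 8 libraries were run in R 4.3.3 with edgeR 4.0.16 and limma 3.58.1, with two-sided tests. DESeq2 1.42.0, other filters, scalings and sets of libraries were alternatives, and a replicate block within each age was added after seeing the data. Scripts were tested on simulated data. Python 3.11.15, matplotlib 3.10.9 and BLAST 2.17.0 were used for plots and sequences.

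The members and lists were chosen with earlier results of these data known. The age contrast over both genotypes was planned as a test for all 9 genes, and for Pttg1 no test is read from it, because the KO adult libraries that set its value also chose the gene. Named genes were the 9 members, up to 3 called genes of smallest p in each direction from each pathway list, the 5 nearest genes on each side of Pttg1 and the 6 genes most like it. Some genes under these rules are not reported here. Log2 CPM for likeness used a prior count of 2. Expression values per length used the union of exons. Marker lists covered cardiomyocyte, fibroblast, endothelial, macrophage and leukocyte, erythroid, epicardial, and smooth muscle and pericyte cells. Epicardial sums were 90.1 to 238 CPM at e13.5 and 15.4 to 46.4 CPM in adults, and smooth muscle sums 1342 to 2705 CPM and 518 to 943 CPM.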

Additional observations from a re-analysis of the deposited data

Results flagged for a closer look

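The KO minus WT difference of Pttg1 was 1.40 on the log2 scale at e13.5 and -4.89 in adults, and every KO library lay above both WT libraries at e13.5 and below both in adults. The difference between the ages was not tested, because the gene was chosen for it. Groups of 2 libraries are too small to check single libraries for outlying values.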

How the results depend on the processing

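Over both genotypes Espl1, Smc1a and Smc3 were called lower in adults under all 16 alternatives, Wapl was called higher under 14, Rad21 under 4 and Stag2 under 1. Scaling moved the median age difference of all genes by -0.17 (upper quartile, over both genotypes), and median of ratios scaling moved that of KO against WT at e13.5 by 0.12. The cause of the changes below was not tested.

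Without a filter on low counts, 1 gene of the 8 other than Pttg1 was lower in WT with age in place of 2, and KO against WT had 32 genes higher and 55 lower at e13.5 in place of 10 and 2, and 29 higher and 35 lower in adults in place of 7 and 1. DESeq2 called 16 higher and 14 lower at e13.5 and 23 higher and 31 lower in adults, and called 1 of the 8 genes higher with age in WT in place of 0. Median of ratios scaling gave 4 genes lower in KO at e13.5 and 3 in adults, and upper quartile scaling gave 3 in adults. Fitted to the 4 libraries of a comparison alone, edgeR called 5 higher and 0 lower at e13.5 and 0 higher and 2 lower in adults.

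Samples with the same number deviated together between WT and KO at e13.5 (correlation 0.552) and in adults (0.307), and between -0.032 and 0.164 across ages, with 2 pairs in each comparison, so the numbers were not taken as pairs. With the replicate block, 2 of the 9 genes were higher with age over both genotypes in place of 1 (Wapl and Rad21, the latter at 1.07, adjusted p = 0.0337) and 1 of 8 in WT in place of 0. With a replicate block within each age, an alternative chosen after seeing the data, 2 of the 9 genes were higher over both genotypes, 2 of 8 in WT and 2 of 8 in KO, 4622 of all genes tested were higher in WT in place of 2954, and KO against WT had 1 gene lower at e13.5 and 4 in adults.

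When each library was left out in turn, the genes higher with age over both genotypes numbered 0 to 3. Of the 8 genes, 0 to 3 were higher and 0 to 2 lower in WT, and 0 to 1 higher and 0 to 3 lower in KO. Over all genes tested, 1734 to 3613 genes were higher and 1157 to 3638 lower in WT, and 2264 to 3975 higher and 1446 to 3823 lower in KO. KO against WT had 5 to 11 genes higher and 1 to 25 lower at e13.5, and 0 to 12 higher and 0 to 8 lower in adults. The Pttg1 value ran from -0.33 to 1.07 for age in WT, from -6.65 to -5.36 for age in KO, from 0.62 to 2.34 for KO against WT at e13.5 and from -5.22 to -4.63 in adults.

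With the longest transcript in place of the union of exons, Stag2 made up 48.8% of the Stag messages in KO e13.5, 67.1% in WT adults and 65.3% in KO adults, and with the longest coding sequence 48.5%, 66.8% and 65.1%, in place of 57.5%, 74.3% and 72.8%. The KO adult level of Pttg1 rested on 21 and 32 counts, which limits its precision, and groups of 2 libraries limit every comparison.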
